A study of Mus musculus with 12 samples.

Results

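The 10 genes described here mark the stem cell zone of the intestinal crypt or answer Wnt signaling, and they were followed through the colon of mice with colitis. They are Lgr5, Ascl2, Smoc2, Axin2, Sox9, Lrig1, Ephb2, Cd44, Rnf43 and Myc. They were chosen by name, looked up by symbol in the 12 count tables, which list 54532 genes, and all 10 were among the 17658 genes with enough reads to be tested. The animals were male C57BL/6 mice, 6 weeks old when provided and kept for a week before they were grouped. RNA came from 3 mice in each of 4 groups, and 1 colon RNA library was sequenced per mouse. All groups but Con drank 3% (w/v) DSS (dextran sulfate sodium, a polymer toxic to the colonic lining) for 5 days. The DSS group had no ursolic acid. In the UA+DSS group UA (ursolic acid, a plant triterpenoid) was gavaged at 200 mg/kg for 7 days from 1 day before DSS. In the DSS+UA group UA at the same dose was gavaged for 4 days from 3 days after DSS began. The discussion of the study gives other lengths of UA for both groups, and by the methods Con and DSS mice were gavaged with vehicle, where the labels call the Con mice untreated. The stretch of colon taken for RNA is not given in the sources used here. No group received UA without DSS.

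The colon lining is renewed from stem cells at the base of the crypts. Wnt proteins bind Frizzled and Lrp5 or Lrp6 receptors at the surface of these cells, beta-catenin then escapes breakdown and joins TCF/LEF factors on DNA, and target genes are switched on. R-spondins bind the Lgr receptors and keep the ubiquitin ligases Rnf43 and Znrf3 from removing Frizzled, while Axin2 and Rnf43 are themselves targets and damp the signal.

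The libraries held 15566216 to 19498383 counts (median 18569670). Levels are given as CPM, the counts of a gene scaled to a common library size, after edgeR's TMM scaling, whose factors were 0.871 to 1.09. The 12 pan-epithelial markers were all detected in every library, so the samples held epithelium. Their summed level was 11408 to 15778 CPM in Con, 6618.5 to 10171 in DSS, 11876 to 14291 in UA+DSS and 13530 to 19296 in DSS+UA. Of these markers 4 fell and 0 rose in DSS against Con, where 12.6% of all tested genes were called lower and 13.9% higher. The summed level of 15 leukocyte markers was 164 to 498 CPM in Con, 1855 to 17127 in DSS with the highest value in DSS 2, 380 to 667 in UA+DSS and 1352 to 1440 in DSS+UA, and 11 of the 15 rose in DSS. That of 14 stromal and endothelial markers was 2120 to 4018 CPM in Con, 4814 to 8437 in DSS, 1779 to 3571 in UA+DSS and 1601 to 3323 in DSS+UA, and 8 of the 14 rose in DSS. In whole-tissue RNA, fewer cells of a type and less RNA per cell cannot be told apart. A colon position score, the mean log2 CPM of 5 distal Hox genes minus that of 6 proximal ones, also moved with the groups. It was -5.70 to -4.16 in UA+DSS, 4.11 to 5.06 in DSS+UA, between 0.37 (DSS 3) and 3.10 (DSS 1) in DSS and 5.53, -3.03 and -1.83 in Con 1, 2 and 3. The stretch of colon and the group therefore cannot be told apart between UA+DSS and the other DSS-treated groups, whose scores did not overlap with those of UA+DSS. The UA+DSS scores also lay below every Con score, so the same holds for UA+DSS against Con. The DSS scores in turn lay below those of DSS+UA without overlap, so the same holds for DSS+UA against DSS.

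Per kilobase of exon, which allows genes to be compared, Lrig1 had the highest mean level in Con, 30.2 CPM per kb, and Lgr5 the lowest, 1.12 CPM per kb. Between them in Con lay Sox9 (15.3 CPM per kb), Myc (12.3), Cd44 (11.3), Axin2 (8.08), Ephb2 (6.93), Rnf43 (6.20), Smoc2 (5.33) and Ascl2 (4.50). Lrig1 and Lgr5 were also the highest and the lowest of the 10 by mean level per kilobase in UA+DSS and DSS+UA. In DSS, Cd44 had the highest mean, 40.1 CPM per kb, above Lrig1 at 22.0, while Lgr5 stood at 0.21. The mean of Cd44 rested on DSS 2, at 83.8 CPM per kb. In DSS 1 and DSS 3 Lrig1 (22.6 and 28.3) was above Cd44 (15.7 and 20.9). The read counts behind the lowest gene, Lgr5, were 10 in DSS 2, 26 in DSS 1 and 87 in DSS 3, against 144 to 317 in the Con libraries. The plot of CPM by library shows every value of the 10 genes.

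**Figure D1:**
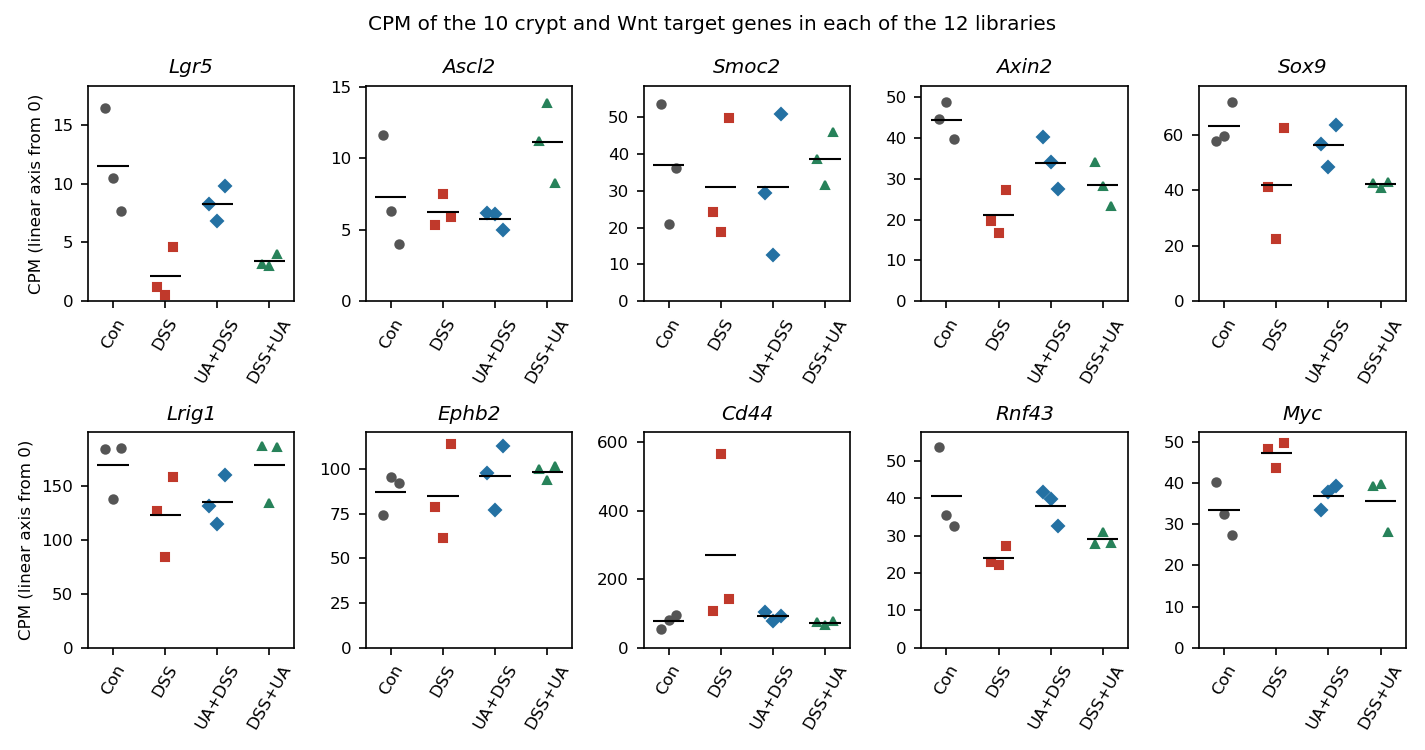
CPM of each of the 10 genes (linear vertical axis from 0, a separate scale for each gene) in the 12 libraries, by group. Each point is 1 library and each bar the mean of its 3 libraries. Lgr5, Axin2 and Rnf43 lie lower in every DSS library than in any Con library, and Cd44 reaches 568 CPM in DSS 2.

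In DSS against Con, 4 of the 10 genes passed the test, with Lgr5, Axin2 and Rnf43 lower and Cd44 higher. Over all tested genes 26.5% were called in this comparison, 13.9% higher and 12.6% lower. For 5 genes, these 4 and Myc, no DSS library lay within the range of Con, which held for 41.3% of all genes. The 10 genes had a median log2 fold change of -0.36, beside -0.034 over all genes. In UA+DSS against DSS, 2 of the 10 genes passed, Lgr5 and Rnf43, both higher, against 18.7% of all genes, 8.21% higher and 10.5% lower, a share that rested on 183 calls without UA+DSS 2 in place of 3300. Lgr5, Axin2 and Rnf43 lay above DSS without overlap and Cd44 and Myc below it, 5 genes in all against 42.8% of all genes, and the median was 0.16 beside -0.019. The comparisons with DSS share the DSS libraries, so their values are set side by side only.

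In DSS+UA against DSS, 0 of the 10 genes passed edgeR's test, against 7.54% of all genes, 2.54% higher and 5.0% lower. Without 1 library that share of all genes rested on 25 (without DSS+UA 3) to 1825 calls in place of 1331. Unadjusted p was under 0.05 for 3 of the 10 (Cd44, Myc and Ascl2) and for 29.9% of all genes. DESeq2 called 1, Cd44, against 17.7% of all genes, and limma-voom called 0 against 6.47%. The groups did not overlap for 4 genes, with Ascl2 and Rnf43 above DSS and Cd44 and Myc below it, against 34.7% of all genes. In UA+DSS against Con, 0 of 10 passed edgeR's test and 0 had an unadjusted p under 0.05, against 12.1% of all genes. DESeq2 called 0 of them against 2.13% of all genes, limma-voom called 0, and the groups overlapped for all 10 genes. In that comparison 0.00566% of all genes, a single gene, were called and 20.6% did not overlap. The colon position scores of UA+DSS and Con did not overlap either, and the part of position in this comparison was not tested. In DSS+UA against Con, 0 of 10 passed edgeR's test where 18.1% of all genes did, 9.13% higher and 8.95% lower. Unadjusted p was under 0.05 for 3 genes, Lgr5, Axin2 and Rnf43, and for 36.0% of all genes. DESeq2 called 2, Lgr5 and Axin2, against 26.4% of all genes, and limma-voom called 1, Lgr5, against 16.5%, so these counts were near the share of all genes or below it. For 4 genes, Lgr5, Axin2, Rnf43 and Sox9, every DSS+UA library lay below every Con library, against 38.9% of all genes without overlap. In UA+DSS against DSS+UA, 0 of 10 passed edgeR's test against 16.8% of all genes, 7.54% higher and 9.23% lower. Ascl2 alone of the 10 had an unadjusted p under 0.05, against 33.8% of all genes, and was the 1 gene called by DESeq2, against 24.6%, while limma-voom called 0 against 16.1%. The groups of that comparison did not overlap for 5 genes, with Lgr5, Rnf43, Sox9 and Cd44 higher and Ascl2 lower in UA+DSS, against 45.3% of all genes.

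**Figure D2:**
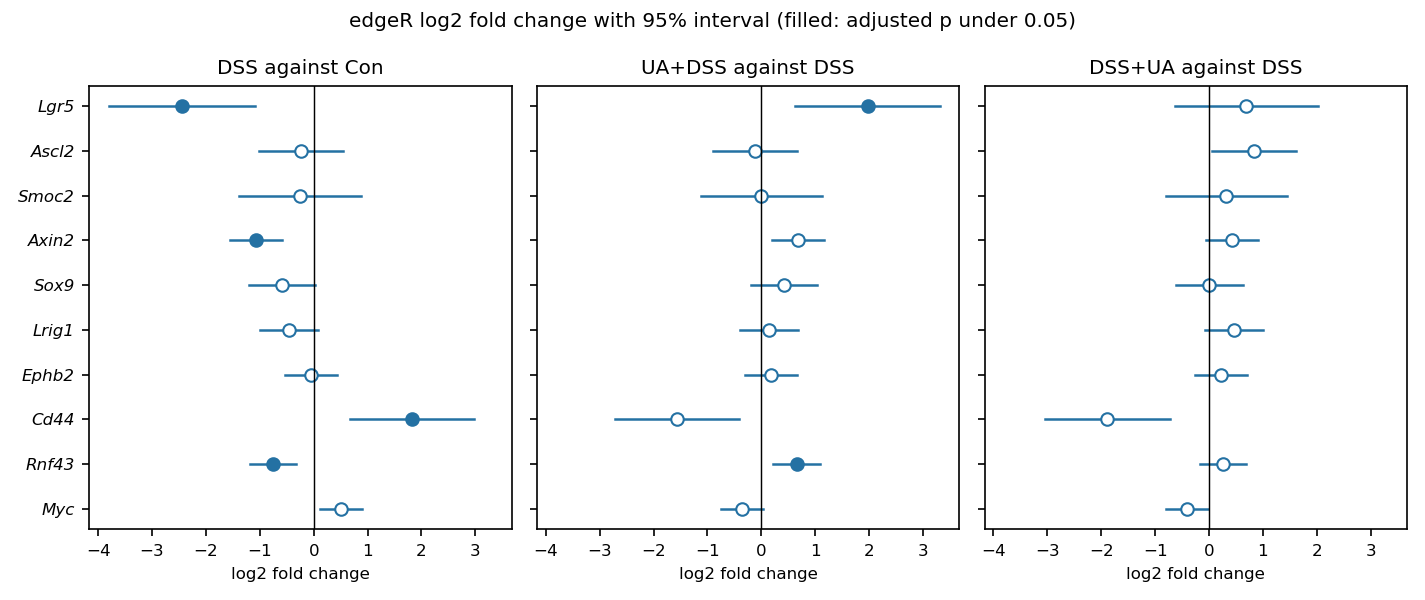
Log2 fold change (horizontal axis) of each of the 10 genes with its 95% interval in DSS against Con, UA+DSS against DSS and DSS+UA against DSS, from 1 edgeR fit of the 12 libraries. Filled points passed an adjusted p of 0.05. They are Lgr5, Axin2, Rnf43 and Cd44 in DSS against Con and Lgr5 and Rnf43 in UA+DSS against DSS.

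Lgr5, the R-spondin receptor that marks crypt base stem cells, had the largest fall of the 10 genes in DSS. Its gene lies at 10:115450311-115587780 of GRCm38. The Con libraries held 16.4, 10.5 and 7.70 CPM in mice 1 to 3, and the DSS libraries 1.25, 0.501 and 4.60 CPM. UA+DSS had 8.28, 6.81 and 9.84 CPM, and DSS+UA 3.16, 3.03 and 4.05 CPM. Every DSS and DSS+UA library was below every Con and UA+DSS library, and DSS 3, the highest of its group, was above the 3 DSS+UA libraries. The mean fell from 11.5 ± 4.44 CPM (SD, n = 3) in Con to 2.12 ± 2.18 in DSS, a log2 fold change of -2.45 (95% interval -3.81 to -1.09, adjusted p = 0.0161) or 5.45-fold. This call was lost without DSS 1 (adjusted p = 0.0582) and when only the 2 groups were fitted (0.0809), and without DSS 3 the log2 fold change was -3.71. In UA+DSS the mean was 8.31 ± 1.51 CPM, 3.93-fold above DSS (log2 fold change 1.97, interval 0.63 to 3.32, adjusted p = 0.0449). That call held without Con 1 or DSS 3 and was lost without each of the 10 other libraries, with an adjusted p of 0.0555 to 0.14. It stood at 3.23 on the log2 scale without DSS 3. With the colon position score as a covariate the log2 fold change was 2.29 and the adjusted p 0.177. In DSS+UA Lgr5 averaged 3.41 ± 0.553 CPM, and its log2 fold change was 0.69 against DSS (interval -0.63 to 2.02, adjusted p = 0.465, with 0.24 without DSS 2 and 1.96 without DSS 3), -1.75 against Con (interval -3.08 to -0.43, adjusted p = 0.0636) and, with UA+DSS as the first group, 1.28 in UA+DSS against DSS+UA (interval -0.029 to 2.59, adjusted p = 0.157).

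The other genes tied to the stem cell itself, Ascl2, Smoc2 and Lrig1, did not pass the test in any comparison. Ascl2, a transcription factor of crypt base stem cells (7:142966829-142969264), was 4.01 to 11.6 CPM in Con, 5.34 to 7.46 in DSS, 4.94 to 6.16 in UA+DSS and 8.26 to 13.9 in DSS+UA. All 3 DSS+UA libraries lay above the DSS and the UA+DSS libraries and Con 1, at 11.6 CPM, lay within the DSS+UA range. Its log2 fold change was -0.23 in DSS against Con (interval -1.01 to 0.55), 0.84 in DSS+UA against DSS (interval 0.054 to 1.62, adjusted p = 0.143) and -0.96 in UA+DSS against DSS+UA (interval -1.74 to -0.17, adjusted p = 0.0861). The 4 libraries with the most Ascl2, which were Con 1 and the 3 of DSS+UA, were the 4 with the highest position score. DSS 1, with the next highest score (3.10), was at rank 10 of 12 for Ascl2, with 5.34 CPM. With that score as a covariate the log2 fold change in UA+DSS against DSS+UA was 0.053. The part of colon position in the level of Ascl2 was not tested. Smoc2, a secreted matrix protein found in crypt base cells and in some stroma (17:14279506-14404790), varied widely within groups. It ranged from 21.1 to 53.6 CPM in Con, 18.9 to 49.9 in DSS, 12.6 to 51.0 in UA+DSS and 31.6 to 46.0 in DSS+UA, and all pairs of groups overlapped. Its interval in DSS against Con, -1.38 to 0.87 on the log2 scale, spanned 0. Lrig1, a membrane protein that restrains growth factor receptors and marks a slower cycling stem cell population (6:94604529-94700158), was 137 to 185 CPM in Con, 83.9 to 158 in DSS, 114 to 160 in UA+DSS and 134 to 187 in DSS+UA. Its log2 fold change in DSS was -0.46 (interval -0.99 to 0.077, adjusted p = 0.18), and that in DSS+UA against Con was 0.0026 (interval -0.53 to 0.54).

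Axin2 and Rnf43, the feedback inhibitors of the pathway, both fell in DSS. Axin2, a scaffold of the complex that marks beta-catenin for breakdown, lies at 11:108920349-108950783 and Rnf43, a membrane ubiquitin ligase, at 11:87662722-87735539 of GRCm38. The windows from 250 bases before to 50 after their starts (RefSeq, GRCm38.p6, plus strand) are shown because both genes are known TCF/LEF targets and fell together, and that of Sp5, another Wnt target, is shown because it does hold letters of the TCF/LEF motif, a choice made after its sequence was seen. The letters searched were CTTTG followed by any pair of letters drawn from A and T, on both strands, and matches are in capitals.
Axin2, chr11:108920099-108920398: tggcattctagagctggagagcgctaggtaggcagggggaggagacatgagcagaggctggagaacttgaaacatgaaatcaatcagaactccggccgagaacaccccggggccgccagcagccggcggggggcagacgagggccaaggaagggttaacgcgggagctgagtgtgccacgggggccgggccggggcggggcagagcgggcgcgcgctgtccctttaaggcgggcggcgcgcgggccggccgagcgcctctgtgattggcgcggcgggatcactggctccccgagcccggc
Rnf43, chr11:87662837-87663136: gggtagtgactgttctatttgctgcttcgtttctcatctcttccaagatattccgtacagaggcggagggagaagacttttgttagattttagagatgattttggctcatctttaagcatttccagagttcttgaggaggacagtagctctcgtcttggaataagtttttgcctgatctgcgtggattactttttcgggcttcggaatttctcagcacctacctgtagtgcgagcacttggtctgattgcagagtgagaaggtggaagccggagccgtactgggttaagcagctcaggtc
Sp5, chr2:70474673-70474972: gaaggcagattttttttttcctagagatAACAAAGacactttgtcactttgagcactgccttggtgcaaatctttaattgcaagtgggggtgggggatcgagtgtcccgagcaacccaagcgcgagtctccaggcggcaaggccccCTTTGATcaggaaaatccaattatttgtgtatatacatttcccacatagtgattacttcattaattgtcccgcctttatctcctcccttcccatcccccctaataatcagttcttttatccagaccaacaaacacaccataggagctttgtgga
The Sp5 window holds 1 match on the other strand from position -222 and 1 on its own strand from position -104, counted from the start of the gene. The promoter table held 7 windows of 6 of the 10 genes, which were Ascl2, Axin2, Lrig1, Ephb2, Cd44 and Rnf43 with 2 starts, and 0 of the 7 contained these letters, against 16.9% of the 32851 windows in the table. A window without the letters says nothing about sites elsewhere in the gene.

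Axin2 was 44.7, 48.9 and 39.8 CPM in the Con libraries and 19.7, 16.7 and 27.2 CPM in the DSS libraries. The UA+DSS libraries had 40.2, 34.1 and 27.5 CPM and the DSS+UA libraries 34.1, 28.1 and 23.3 CPM. The 3 DSS libraries were below all Con and UA+DSS libraries, with UA+DSS 3 closest at 27.5 CPM, and DSS+UA overlapped with DSS. The mean fell from 44.5 ± 4.52 CPM in Con to 21.2 ± 5.42 in DSS (log2 fold change -1.07, interval -1.55 to -0.59, adjusted p = 0.00685), and this call held when any 1 library was left out but not when scaled to the pan-epithelial markers (-0.38, adjusted p = 0.275). UA+DSS against DSS gave a log2 fold change of 0.68 (interval 0.20 to 1.16) with an adjusted p of 0.0504. It was 0.43 in DSS+UA against DSS (interval -0.050 to 0.90, adjusted p = 0.211) and -0.64 in DSS+UA against Con (interval -1.12 to -0.17, adjusted p = 0.0605), where the groups did not overlap.

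Rnf43 was 53.8, 35.6 and 32.7 CPM in Con and 22.9, 22.1 and 27.4 CPM in DSS. The UA+DSS libraries had 41.6, 39.7 and 32.5 CPM and those of DSS+UA 27.9, 31.1 and 28.1 CPM. All DSS+UA libraries lay above those of DSS and below those of Con and UA+DSS. The mean was 40.7 ± 11.5 CPM in Con and 24.1 ± 2.83 in DSS (log2 fold change -0.75, interval -1.18 to -0.33, adjusted p = 0.0174). The call was lost without DSS 1 (adjusted p = 0.06), without DSS 2 (0.0525) and when only the 2 groups were fitted (0.0721). Scaled to the pan-epithelial markers the log2 fold change was -0.075 (0.855), and without Con 1, the highest library, the log2 fold change was -0.50 with an adjusted p of 0.0462. UA+DSS was higher than DSS, at 38.0 ± 4.83 CPM (log2 fold change 0.65, interval 0.23 to 1.08, adjusted p = 0.0398). This call was lost without DSS 1, DSS 2 or any 1 of the UA+DSS and DSS+UA libraries, with an adjusted p of 0.0563 to 0.126. With the position score as a covariate the log2 fold change was 1.04 and the adjusted p 0.1. In DSS+UA against Con the log2 fold change was -0.49 (interval -0.91 to -0.060, adjusted p = 0.0978).

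Sox9, a transcription factor of progenitor and stem cells (11:112782224-112787760), was 57.9 to 71.7 CPM in Con and 22.5 to 62.3 in DSS, with DSS 3 within the Con range. It was 48.5 to 63.6 CPM in UA+DSS and, with a coefficient of variation of 2.66%, 40.8 to 42.9 in DSS+UA, below every Con and UA+DSS library. Its log2 fold change was -0.59 in DSS against Con (interval -1.21 to 0.031, adjusted p = 0.141) and -0.58 in DSS+UA against Con (interval -1.20 to 0.036, adjusted p = 0.161). Ephb2, a receptor that keeps crypt cells in place along the crypt axis (4:136647539-136835988), was 74.3 to 95.5 CPM in Con, 61.3 to 114 in DSS, 77.1 to 113 in UA+DSS and 93.9 to 102 in DSS+UA. All pairs of groups overlapped for Ephb2, and its log2 fold change in DSS against Con was -0.046 (interval -0.53 to 0.44).

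Cd44, a hyaluronan receptor and Wnt target that leukocytes also carry in quantity (2:102811141-102901665), was 55.0, 80.9 and 94.3 CPM in Con and 106, 568 and 141 CPM in DSS. UA+DSS mice 1 to 3 had 104, 78.7 and 92.3 CPM and DSS+UA mice 76.6, 65.9 and 78.3 CPM. DSS 2, the library with a summed leukocyte marker level of 17127 CPM, stood far above the others, while DSS 1 was 106 CPM beside 104 in UA+DSS 1. That sum was 2564 CPM in DSS 1 and 1855 in DSS 3, though DSS 1 had less Cd44 than DSS 3. The geometric mean of the leukocyte markers was 74.4, 153 and 39.4 CPM in DSS 1, 2 and 3. Cd44 rose in DSS against Con (log2 fold change 1.82, interval 0.67 to 2.98, adjusted p = 0.028). Without DSS 2 the log2 fold change was 0.69 with an adjusted p of 0.0519, and the call was also lost without Con 1 (0.0864), Con 2 (0.075) or Con 3 (0.0501), with no filter on low counts (0.0685) and when only the 2 groups were fitted (0.113). The log2 fold change was -1.57 in UA+DSS against DSS (interval -2.71 to -0.42, adjusted p = 0.0586) and -1.88 in DSS+UA against DSS (interval -3.04 to -0.72, adjusted p = 0.0526). Without DSS 2 these were -0.43 (adjusted p = 0.228) and -0.73 (0.106). The part of leukocytes in the level of Cd44 was not tested.

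Myc, the transcription factor of growth and proliferation (15:61985391-61990374), was 40.2, 32.6 and 27.5 CPM in Con and 48.4, 43.7 and 49.7 CPM in DSS. UA+DSS mice had 33.4, 37.7 and 39.3 CPM, and DSS+UA mice 39.3, 39.8 and 28.1 CPM. The DSS libraries were the 3 highest of the 12 for Myc. Its log2 fold change was 0.50 in DSS against Con (interval 0.11 to 0.89), with an adjusted p of 0.0585 by edgeR and 0.0426 by DESeq2. It was -0.36 in UA+DSS against DSS (interval -0.75 to 0.029, adjusted p = 0.175) and -0.40 in DSS+UA against DSS (interval -0.79 to -0.014, adjusted p = 0.155).

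The epithelial share of the RNA moved with the groups, so each gene was also set against the geometric mean of the 12 pan-epithelial markers. These markers did not move as 1 set in UA+DSS against DSS+UA, where 2 lay above and 3 below without overlap and 0 were called. Cdx2, chosen after its values were seen, averaged 320 CPM in UA+DSS and 74.2 in DSS+UA, and Krt19 1953 and 3337. The mean of the markers can therefore itself differ with the group. On this scale Lgr5 was 2.76%, 1.22% and 1.21% of that mean in Con and 0.297%, 0.156% and 0.849% in DSS. It was 1.26%, 0.982% and 1.26% in UA+DSS and 0.506%, 0.354% and 0.591% in DSS+UA, so the DSS and DSS+UA libraries were all below those of Con and UA+DSS. Axin2 was 5.69% to 7.51% in Con, 4.69% to 5.19% in DSS, 3.53% to 6.13% in UA+DSS and 3.28% to 5.45% in DSS+UA. The DSS range of Axin2 was thus just below that of Con and inside that of UA+DSS. Rnf43 was 4.14% to 9.05% in Con and 5.06% to 6.89% in DSS, inside the Con range. Myc was 3.79% to 6.77% in Con, 9.17% to 13.6% in DSS, 5.04% to 5.44% in UA+DSS and 4.10% to 6.29% in DSS+UA, with all DSS libraries above all others.

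An edgeR fit scaled to these 12 markers moved the all-gene median in DSS against Con from -0.034 to 0.69 on the log2 scale, and the values of the 10 genes are to be read against that shift. Lgr5 still passed as lower (log2 fold change -1.97, adjusted p = 0.0148), while Axin2 (-0.38, adjusted p = 0.275) and Rnf43 (-0.075, adjusted p = 0.855) did not pass. Cd44 (2.77, adjusted p = 0.0112), Myc (1.21, adjusted p = 0.00566) and Ephb2 (0.63, adjusted p = 0.0336) passed as higher, and of these Ephb2 lay under the shifted median. In UA+DSS against DSS, where the median of all genes was -0.80 on this scale, Rnf43 stood at -0.097 and Lgr5 at 1.41 with an adjusted p of 0.053.

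**Figure D3:**
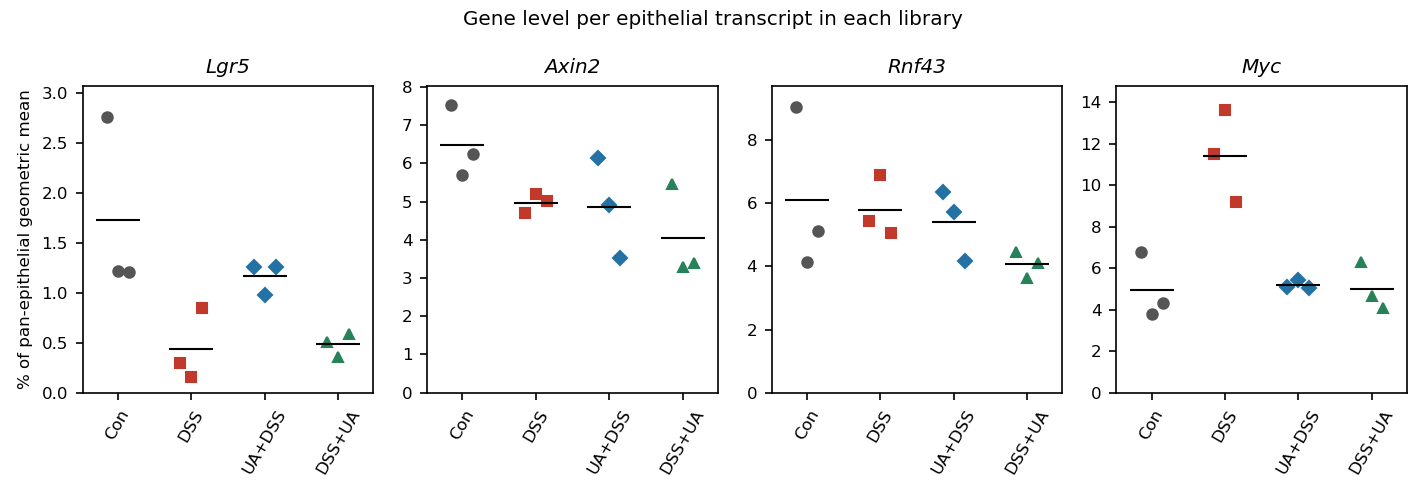
Level of Lgr5, Axin2, Rnf43 and Myc as a percentage of the geometric mean CPM of 12 pan-epithelial markers (linear vertical axis from 0), 1 point a library by group, with the mean of each group as a bar. Lgr5 is 0.156% to 0.849% in DSS against 1.21% to 2.76% in Con, whereas the Rnf43 values of DSS lie within those of Con.

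**Figure D4:**
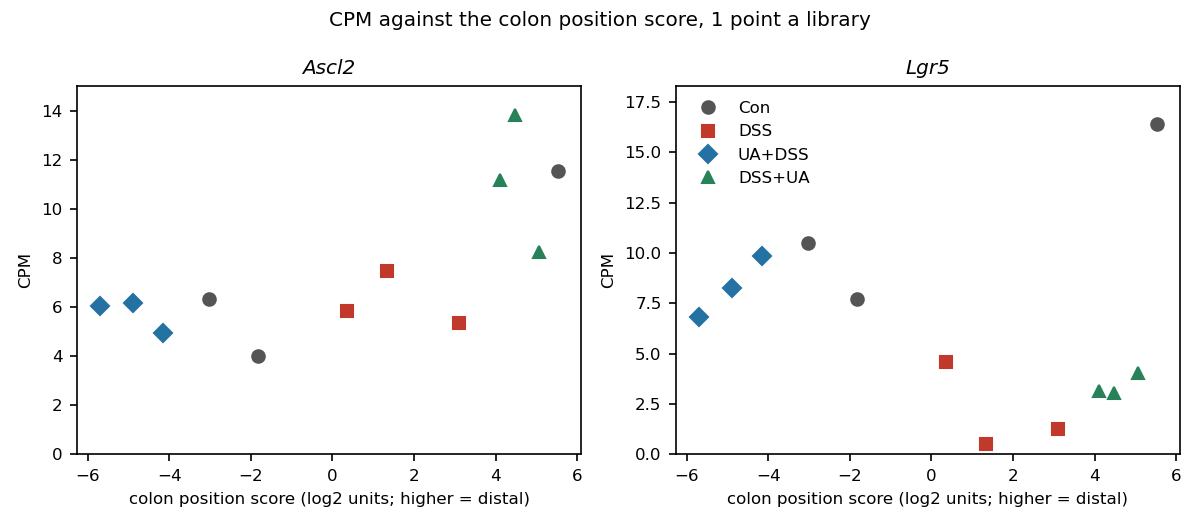
CPM of Ascl2 and Lgr5 (vertical axis, linear from 0) against the colon position score of the same library (horizontal axis, log2 units, higher for more distal Hox expression), with groups by color and marker. The UA+DSS libraries lie at -5.70 to -4.16 and the DSS+UA libraries at 4.11 to 5.06, and the 4 libraries with the highest score are the 4 with the most Ascl2.

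The signals that reach the crypt were taken from 13 further lists of 181 genes, of which 163 were tested. For every list, UA+DSS against DSS is to be read beside 8.21% of all genes called higher and 10.5% lower. With the colon position score as a covariate 3 of all genes were called in that comparison. Of 23 listed Wnt ligands and R-spondins 10 were tested, and in DSS against Con 4 rose and 0 fell, with a median log2 fold change of 1.24 beside -0.034 over all genes. Wnt5a, a ligand made by crypt-surrounding stroma, rose by 1.54 on the log2 scale (adjusted p = 0.00646), Wnt11 by 2.26 (0.00409), and the R-spondins Rspo1 and Rspo3 by 2.60 (0.0152) and 1.45 (0.0251). Rspo3, which feeds the Lgr receptors, was 2.61 to 5.45 CPM in Con and 7.92 to 13.1 in DSS. In DSS+UA against DSS 2 of the 10 fell, Wnt5a by 1.63 (adjusted p = 0.0202) and Wnt11 by 1.77 (0.0295), and in UA+DSS against DSS 2 fell, Wnt5a by 1.58 (0.0122) and Wnt4 by 1.81 (0.0214). Wnt2b, another stromal ligand, did not pass in any comparison and was 4.06 to 27.4 CPM in DSS. The summed level of stromal and endothelial markers moved the same way in DSS, and its part in these ligands was not tested. Not all of these markers rose in DSS against Con. The log2 fold change was above 0 for 11 and below 0 for 3, with 0 called lower. Myh11 (-0.80) and Des (-1.06) were among the 3.

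Several secreted inhibitors of Wnt and BMP were also higher in DSS. Of 12 tested from 15, 5 rose in DSS and 0 fell (median 1.01), among them Grem1, a BMP antagonist of the stroma below the crypts, with a log2 fold change of 3.25 (adjusted p = 0.00942), Sfrp1 with 2.68 (0.0111) and Sfrp4 with 1.99 (0.0163). Grem1 was 29.7 to 68.8 CPM in Con, 274 to 562 in DSS, 20.6 to 159 in UA+DSS and 46.8 to 131 in DSS+UA. Of these inhibitors 5 fell and 0 rose in UA+DSS against DSS, and in DSS+UA against DSS 4 fell and 0 rose. Notum, a secreted Wnt deacylase, had too few reads to be tested, with at most 0.479 CPM in any library.

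Among the receptors, 2 of 17 tested rose and 5 fell in DSS against Con (median -0.54). Frizzled genes went both ways, with Fzd5 at -1.60 (adjusted p = 0.00426), Fzd1 at 1.33 (0.003) and Fzd4 at 0.66 (0.0363). The epithelial R-spondin receptor Lgr4, a relative of Lgr5, fell by 1.21 on the log2 scale (adjusted p = 0.00947), from 178 to 274 CPM in Con to 64.9 to 136 in DSS, and Znrf3, the partner of Rnf43, fell by 0.78 (0.0313). The pan-epithelial markers Epcam (-0.93, adjusted p = 0.0234), Cldn3 (-0.96, 0.0214) and Esrp1 (-0.89, 0.0189) fell in the same comparison, and their part in the falls of epithelial receptors and factors was not tested. Of the receptors 4 rose and 1 fell in UA+DSS against DSS, with Fzd5 at 1.58 (adjusted p = 0.0101). In the core of the beta-catenin pathway 2 of 23 rose and 2 fell in DSS (median -0.040). Tcf7l2, the main TCF factor of the gut epithelium, fell by 1.22 (adjusted p = 0.00276), while Tcf7, a factor that T cells also use, rose with 2.16 (0.0249). The genes for beta-catenin itself, Ctnnb1, and for Apc did not pass in any comparison, and their log2 fold changes in DSS against Con were -0.040 for Ctnnb1 and -0.070 for Apc.

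Other Wnt targets did not move one way. Of 14 tested, 6 rose and 2 fell in DSS against Con (median 0.50). Those that rose included Apcdd1, a Wnt inhibitor at the membrane (2.45, adjusted p = 0.0024), and the proteolysis genes Plaur (4.70, 0.00655) and Mmp7 (4.53, 0.0165), which inflamed tissue also expresses. Those that fell were Ephb3, the relative of Ephb2 (-1.29, adjusted p = 0.00417), and Tnfrsf19, a Wnt target marking stem cells (-1.60, 0.0236). Nkd1, a feedback inhibitor, did not pass in any comparison and had a log2 fold change of 0.66 in DSS against Con. Against DSS, 4 of them fell and 0 rose in UA+DSS.

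Of 11 other stem and progenitor markers 2 rose and 2 fell in DSS against Con (median -0.32). Rgmb, a BMP co-receptor, fell by 1.22 on the log2 scale (adjusted p = 0.00159) and was higher in UA+DSS than in DSS (0.90, adjusted p = 0.00998), the order seen for Lgr5. In other fits the adjusted p of Rgmb reached 0.102 for the fall and 0.661 for the difference of UA+DSS from DSS. Tert also fell, by 1.31 (adjusted p = 0.0495, up to 0.469 in other fits), from a mean of 3.19 CPM in Con to 1.28 in DSS. Bmi1 rose by 0.76 (adjusted p = 0.0137, at most 0.0424 in any other fit), with every DSS library above every Con library. Olfm4, a stem cell marker of the small intestine, was called higher in DSS, but rested on DSS 2 at 41.3 CPM beside 0.962 and 1.37 in the other DSS libraries and 0, 0 and 0.214 in Con. Of 12 proliferation genes 4 rose and 0 fell in DSS, where the replication genes Mcm2 and Mcm5 had log2 fold changes of 1.26 and 1.32 (adjusted p = 0.00529 and 0.00668), while Lgr5 fell. Of the 12, 10 fell and 0 rose in UA+DSS against DSS, with Cdk1 at -1.09 (adjusted p = 0.0189, up to 0.252 in other fits), and in DSS+UA against Con 7 rose and 0 fell. Mki67, a marker of cycling cells, did not pass in any comparison and was 230 to 466 CPM in Con, 245 to 269 in DSS, 79.9 to 172 in UA+DSS and 148 to 443 in DSS+UA. Of 12 surface colonocyte genes 2 fell and 0 rose in DSS against Con, and 4 rose and 0 fell in UA+DSS against DSS.

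**Figure D5:**
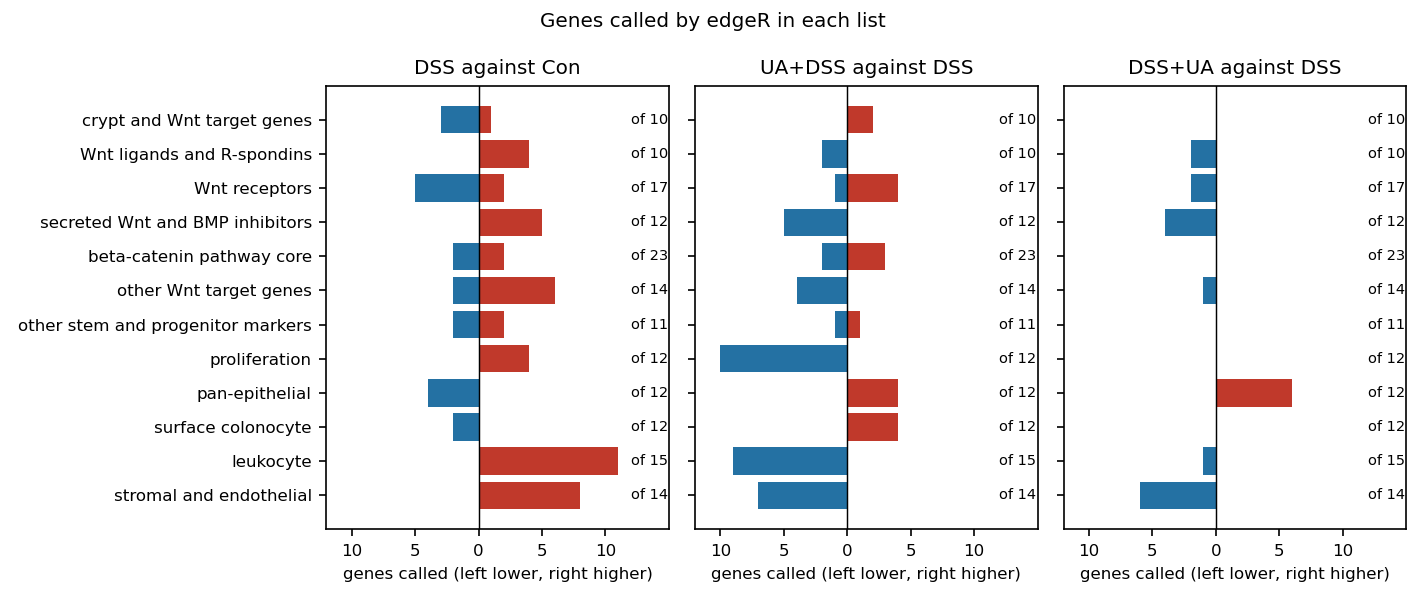
Number of genes called by edgeR (adjusted p under 0.05) in each list, with genes called lower to the left of 0 and genes called higher to the right, for DSS against Con, UA+DSS against DSS and DSS+UA against DSS, with the number tested at the right. In DSS against Con the Wnt ligand and R-spondin list has 4 higher and 0 lower, and the 10 crypt and Wnt target genes have 1 higher and 3 lower. Over all tested genes 13.9% were called higher and 12.6% lower in that comparison.

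The likeness of 2 genes was measured as the root mean square difference of their log2 CPM over the 12 libraries after each was standardized, so that 0 is an identical pattern, and it is a description only. Within the 10 genes Lgr5 was closest to Sox9 (0.504), Axin2 (0.523) and Rnf43 (0.525), and farthest from Cd44 (1.85). Smoc2 and Lrig1 were closest to each other (0.655), and Ascl2 had no member nearer than Smoc2 (1.29). Of all other tested genes the nearest to Lgr5 were Myo3a (0.248), Ppip5k1 (0.252) and Arhgap12 (0.263), where the median over all genes was 1.41. For Cd44 they were N4bp1 (0.232), Rps6ka2 (0.233) and Irak3 (0.235). The nearest genes to Smoc2, Mex3a (0.513), Pla2g5 (0.528) and Krt87 (0.529), and to Myc, Tmem120b (0.533), Mt1 (0.543) and Sprn (0.575), were farther away. All genes share the 12 libraries, their depths and their mix of cells.

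The use of strand in counting is not stated, so reads of a gene and of an antisense neighbor cannot be told apart. Genes on the same strand overlap Rnf43 (1110028F11Rik) and Lrig1 (Mir7041), and antisense genes overlap Lgr5 (A930009A15Rik), Smoc2 (4930474M22Rik), Axin2 (Gm11670), Lrig1 (Slc25a26), Cd44 (Gm23731) and Rnf43 (Gm25968). Of the 50-base stretches of the Lgr5 exons 0.647% also occurred in other genes, and of those of Ephb2 0.182%, against 0 for the other 8 genes.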

How the data were processed

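Colon RNA of 12 mice was sequenced with a TruSeq RNA kit on a HiSeq-2500. Each deposited file gives whole-number read counts for Ensembl genes, as made by the authors and without normalization. The submitters' processing notes name FastQC, HISAT2, Cuffdiff and GRCm38. For the counting program, its use of strand and the annotation release, the sources used here give nothing. The labels name Trizol and the methods an RNeasy kit for the RNA.

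Genes were named with GENCODE M21 on GRCm38 (54409 of 54532 matched). With edgeR 4.0.16 (R 4.3.3), filterByExpr left 17658 genes with 99.8% of the counts, TMM factors were applied, and all 12 samples entered 1 robust quasi-likelihood fit by group. P-values were adjusted by Benjamini-Hochberg over all tested genes with a threshold of 0.05, and intervals are 95% t intervals. The fit was also run on counts simulated from its own dispersions, with 200 genes changed in DSS. That setting holds no difference in cell mix or colon position, so it cannot speak for these. The position score used log2 CPM with a prior count of 2. Each replicate is 1 mouse. Alternatives were DESeq2 1.42.0, limma-voom (limma 3.58.1), library size only, scaling to pan-epithelial genes, no filter, only the 2 groups of a comparison, a block for the replicate number, the position score as covariate and each library left out. The 10 genes and all lists were chosen with earlier results of these data known. The rule for named genes takes the 10 genes, 14 pathway and marker genes, up to 3 called genes of smallest p per list and direction, and the 3 genes most like Lgr5, Smoc2, Cd44 and Myc. Genes outside this rule are said to be chosen after being seen.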

Additional observations from a re-analysis of the deposited data

How the results depend on the processing

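Of the calls of the 10 genes, the fall of Axin2 in DSS was lost only under pan-epithelial scaling, and 1 or 2 of the 8 other settings lost the falls of Lgr5 and Rnf43, 3 the rise of Cd44, and 5 each the rises of Lgr5 and Rnf43 in UA+DSS against DSS. Of the 10 genes edgeR called 4, 2, 0, 0, 0 and 0 in DSS against Con, UA+DSS against DSS, DSS+UA against DSS, UA+DSS against Con, DSS+UA against Con and UA+DSS against DSS+UA. UA+DSS against DSS gave 4 with DESeq2 (25.5% of all genes called), 0 with library size (17.3%), no filter (7.30%) or the position score (0.017%) and 1 when only those groups were fitted (12.4%). DSS+UA against DSS gave 1 with DESeq2 (17.7%) or library size (6.47%) and 2 with pan-epithelial scaling (30.9%). DSS+UA against Con gave 2 with DESeq2 (26.4%) or only those groups (12.3%) and 1 with limma-voom (16.5%) or the position score (12.3%). UA+DSS against DSS+UA gave 1 with DESeq2 (24.6%) and 2 with only those groups (26.1%), and DSS against Con 1 with only those groups (12.6%). Leaving out each library gave 2 to 5 in DSS against Con (15.8% to 25.7% of all genes called). In UA+DSS against DSS it gave 0 to 5 (1.00% to 22.7%), and in DSS+UA against DSS 0 to 2 (0.137% to 10.1%). DSS+UA against Con gave 0 to 3 (5.81% to 22.4%) and UA+DSS against DSS+UA 0 to 1 (3.07% to 21.5%). UA+DSS against Con gave 0 to 0 (0% to 0.0219%).

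The replicate numbers gave no clear sign of pairing. Among same-numbered pairs 5 of 18 had deviations correlated over 0.1 (range -0.216 to 0.187), beside 9 of 36 differently numbered pairs (range -0.289 to 0.240). Of 12 samples 5 correlated best with their own number. With 3 samples a group these values cannot exclude a pairing. With the number as a block 1 of the 10 genes was called in UA+DSS against DSS, against 17.8% of all genes. In DSS+UA against DSS 552 of all genes were called with the block, in place of 1331. The rise of Cd44 in DSS against Con (1.65, adjusted p = 0.0546) and that of Rnf43 in UA+DSS against DSS (0.64, 0.052) were not called with the block. With the block Smoc2 stood at -0.073 in UA+DSS against DSS and Lrig1 at -0.00072 in DSS+UA against Con.

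Some log2 fold changes changed sign, and of these only that of Rnf43 in UA+DSS against DSS was called by edgeR in the reported fit. With pan-epithelial scaling they were Ascl2 0.50, Smoc2 0.29, Sox9 0.020, Lrig1 0.17 and Ephb2 0.63 in DSS against Con, and Smoc2 -0.70, Axin2 -0.033, Sox9 -0.25, Lrig1 -0.58, Ephb2 -0.54 and Rnf43 -0.097 in UA+DSS against DSS, and Ascl2 -0.014, Smoc2 -0.33, Axin2 -0.30, Sox9 -0.66, Lrig1 -0.23, Ephb2 -0.49 and Rnf43 -0.51 in DSS+UA against DSS, and Smoc2 -0.047 and Lrig1 -0.061 in DSS+UA against Con. With the position score they were Ephb2 0.015 in DSS against Con, and Ascl2 0.57 and Ephb2 -0.085 in UA+DSS against DSS, and Smoc2 -0.056 in DSS+UA against DSS, and Ascl2 0.29, Smoc2 0.37, Ephb2 -0.070, Cd44 -0.16 and Rnf43 0.24 in UA+DSS against Con, and Smoc2 -0.35, Lrig1 -0.11, Cd44 0.36 and Myc -0.059 in DSS+UA against Con, and Ascl2 0.053, Smoc2 0.72 and Cd44 -0.52 in UA+DSS against DSS+UA. With library size they were Ephb2 0.033 in DSS against Con, and Smoc2 -0.079 in UA+DSS against DSS, and Sox9 -0.13 in DSS+UA against DSS, and Lrig1 -0.052 in DSS+UA against Con, and Ephb2 0.0012 in UA+DSS against DSS+UA. With limma-voom they were Smoc2 -0.061 in UA+DSS against DSS, and Lrig1 -0.0027 in DSS+UA against Con. With only the 2 groups they were Sox9 -0.043 in DSS+UA against DSS, and Lrig1 -0.028 in DSS+UA against Con. With DESeq2 they were Smoc2 -0.0063 in UA+DSS against DSS. Over the fits without 1 library the ranges were Ascl2 -0.54 to 0.27, Smoc2 -0.78 to 0.11, Ephb2 -0.32 to 0.14 in DSS against Con, Ascl2 -0.23 to 0.027, Smoc2 -0.56 to 0.52, Lrig1 -0.077 to 0.36, Ephb2 -0.0097 to 0.45 in UA+DSS against DSS, Sox9 -0.28 to 0.42 in DSS+UA against DSS, Ascl2 -0.66 to 0.15, Smoc2 -0.82 to 0.13, Ephb2 -0.0030 to 0.27, Rnf43 -0.25 to 0.15 in UA+DSS against Con, Smoc2 -0.21 to 0.44, Lrig1 -0.12 to 0.15, Cd44 -0.25 to 0.12, Myc -0.022 to 0.26 in DSS+UA against Con, Smoc2 -0.90 to 0.055, Ephb2 -0.19 to 0.095, Myc -0.12 to 0.11 in UA+DSS against DSS+UA. Pan-epithelial scaling moved the median of all genes to 0.69, -0.80 and -0.76 in DSS against Con, UA+DSS against DSS and DSS+UA against DSS. Of all calls in DSS against Con 52.5% were higher, and 92.7% with that scaling. The share went from 43.9% to 5.53% in UA+DSS against DSS, from 33.7% to 0.11% in DSS+UA against DSS (12.2% with library size), from 50.5% to 29.2% in DSS+UA against Con (39.9% with library size) and from 45.0% to 73.3% in UA+DSS against DSS+UA. DESeq2 called 3126 genes in DSS+UA against DSS, where edgeR called 1331, and 376 in UA+DSS against Con, where edgeR called 1. Leaving out 1 library gave 2894 (without Con 2) to 4708 calls over all genes in DSS against Con, 183 (UA+DSS 2) to 4112 in UA+DSS against DSS, 25 (DSS+UA 3) to 1825 in DSS+UA against DSS, 1062 (DSS+UA 3) to 4057 in DSS+UA against Con and 560 (UA+DSS 2) to 3893 in UA+DSS against DSS+UA. With the position score 3 genes in place of 3300 were called in UA+DSS against DSS and 0 in place of 2961 in UA+DSS against DSS+UA. In DSS+UA against DSS 199 were called in place of 1331, and in DSS against Con 5382 in place of 4688.

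The depth, 15566216 counts or more a library, left Lgr5 with 10 counts in DSS 2. The cause of the changes between settings was not tested.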
